A study of Mus musculus with 4 samples.

Results

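The aminoacyl-tRNA synthetase genes are described here in mouse heart fibroblasts with and without a hairpin against Nr4a3. The members are all rows of the deposited count table whose gene symbol has the form of a synthetase symbol (an amino acid letter followed by ars, with or without 1 or 2, plus Eprs1, Ears2, Pars2, Fars2, Farsa and Farsb), and there were 37 of 13192 listed genes. The 17 members with a symbol ending in 2 were taken as mitochondrial and the other 20 as cytosolic. RNA-seq libraries came from primary cardiac fibroblasts of neonatal heart tissue with a WT genotype, collected at day 7 of treatment. 2 libraries carried a non-targeting short hairpin RNA (shNT, the control) and 2 a short hairpin RNA against Nr4a3 (shNr4a3), an RNA that the cell processes into a small interfering RNA that lowers its matching transcript. P3 also stands in every title, with no explanation in the labels. By its design text, the study looked for what lowered Nr4a3, the gene of an orphan nuclear receptor, changes in fibroblasts that are to be turned into cardiomyocyte-like cells. The labels do not say whether replicates came from separate cultures, so the p-values measure only the spread between these libraries, which may be technical.

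Aminoacyl-tRNA synthetases join each amino acid to its transfer RNA (tRNA) and so set how the genetic code is read. Most amino acids have a cytosolic enzyme, which serves the ribosomes that translate nuclear genes, and a separate mitochondrial enzyme, encoded in the nucleus and imported, which serves the few proteins made inside mitochondria. Glycine and lysine are exceptions, since Gars and Kars1 each encode both forms. Several cytosolic enzymes sit together in the multi-synthetase complex. When amino acids run short, uncharged tRNA activates the kinase GCN2, which phosphorylates eIF2 and raises translation of the transcription factor ATF4, and many cytosolic synthetase genes are known ATF4 targets. Cardiac fibroblasts make large amounts of collagen and other matrix proteins, which draws on this machinery.

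The libraries held 34068241 and 35111013 counts (shNT) and 34246969 and 34813598 counts (shNr4a3), so the depth hardly differed between them. Nr4a3 itself was counted 60 and 29 times in the controls and 4 and 8 times in the knockdown, a log2 fold change of -2.98 ± 0.67 (SE, n = 2 per group; edgeR adjusted p = 3.22e-04). All 37 members passed the filter on low counts, and 13160 genes were tested. Of these, 55.5% passed the test at an adjusted p under 0.05, 27.6% higher and 27.9% lower in shNr4a3, and the groups did not overlap for 77.2%. A count of calls among the synthetases is to be read against these shares. In bulk samples, fewer cells of a type and less RNA per cell cannot be told apart.

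Cytosolic and mitochondrial synthetase transcripts differed in how many passed the test. Among the 20 cytosolic genes, 7 fell and 4 rose in shNr4a3, and 9 did not pass, so 55% were called, near the share of all genes. Iars1 fell the most, 2.51-fold, and Farsb rose the most, 1.63-fold. Among the 17 mitochondrial genes only Yars2 rose and only Sars2 fell, or 11.8% against 55.5% of all genes, and each of these calls was lost in some fits that left out a single library. The median log2 fold change was -0.07 over the cytosolic genes, -0.03 over the mitochondrial genes and 0.00 over all tested genes. With library totals in place of TMM factors the 3 medians were 0.04, 0.09 and 0.12. That scaling raised the share of higher genes among the called from 49.7% to 62.4% over all genes and from 36.4% to 50% over the cytosolic synthetases.

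**Figure D1:**
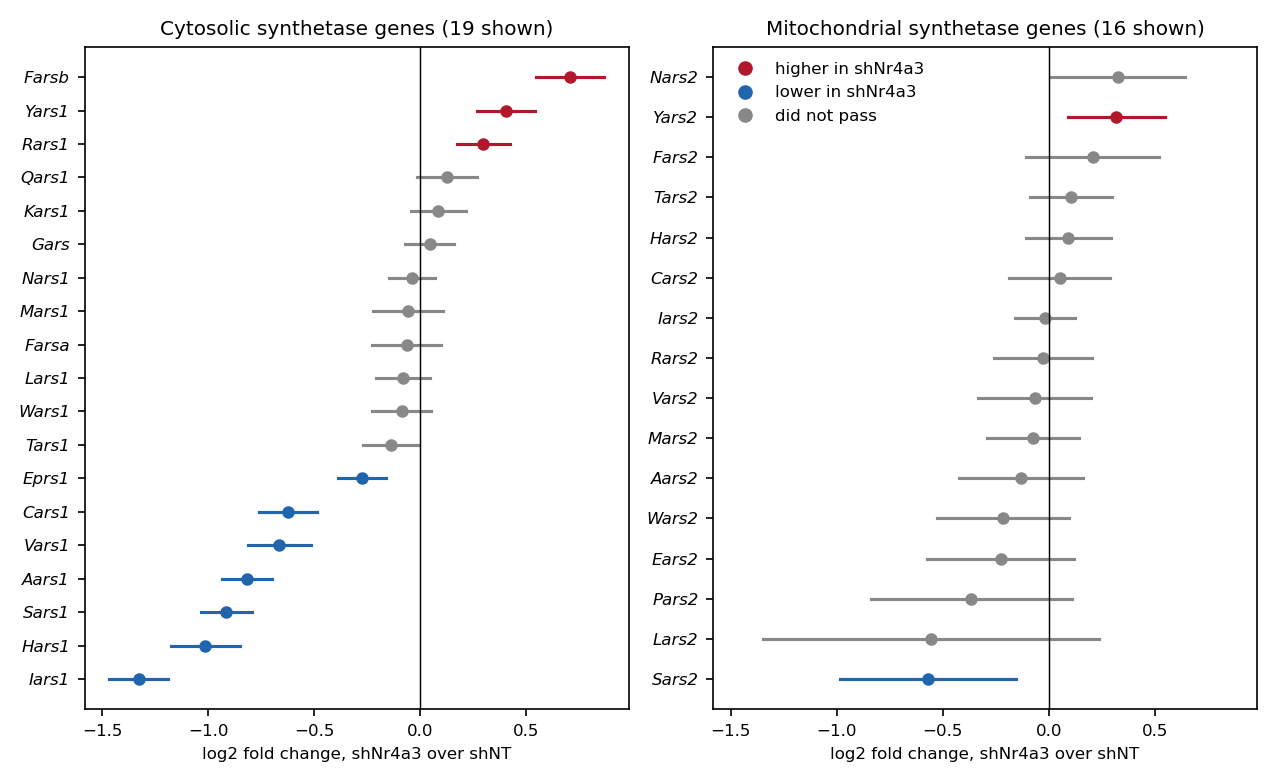
Log2 fold change (shNr4a3 over shNT, horizontal axis) of 35 of the synthetase genes, each with its 95% interval from the edgeR fit, 2 libraries per group, cytosolic genes on the left and mitochondrial genes on the right. Coloured points passed the test: the cytosolic genes run from -1.33 for Iars1 to 0.70 for Farsb, and the mitochondrial genes lie from -0.57 to 0.33 with wider intervals.

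The precision differed between the classes. The mitochondrial genes had fewer counts, with a median over genes of 601 mean counts per library against 3835 for the cytosolic genes, and a median standard error of 0.14 against 0.07 on the log2 scale. Of the 9300 tested genes with mean counts in the range of the mitochondrial members, 146.25 to 6292.25, 59.9% passed. The share was 68.4% for the 3745 genes in the range of the cytosolic members. The upper end of the mitochondrial range came from Lars2 alone, so that band is not matched to the median of 601 counts. The median size of the log2 fold change, sign ignored, was 0.16 for mitochondrial genes, 0.29 for cytosolic genes and 0.35 for all tested genes. The whole 95% interval lay within 0.5 of 0 for 9 mitochondrial and 11 cytosolic genes, which bounds their change.

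Promoter sequences were set beside the changes because ATF4 acts through a known composite element with C/EBP factors, whose core letters are TGATGNAA, or TTNCATCA on the other strand. Windows from 250 bases before to 50 bases after the start were taken from RefSeq (GRCm38.p6) and were read for 13 cytosolic and 14 mitochondrial members. Hars1, Lars1, Nars1 and Hars2 were among the members without a window, so the motif counts do not cover them. The core was found in 5 of the 13 cytosolic genes and in 0 of the 14 mitochondrial genes, against 4.51% of all 27025 genes with a window. The E-box CACGTG, which reads alike on both strands and did not overlap the core in any of these windows, was found in 4 of 13 and 1 of 14, against 8.09%. The 5 genes with the core are shown, 5′ to 3′ and cut at 30 bases from the start, with both motifs in capitals.
Iars1, chr13:49681880-49682159, plus strand: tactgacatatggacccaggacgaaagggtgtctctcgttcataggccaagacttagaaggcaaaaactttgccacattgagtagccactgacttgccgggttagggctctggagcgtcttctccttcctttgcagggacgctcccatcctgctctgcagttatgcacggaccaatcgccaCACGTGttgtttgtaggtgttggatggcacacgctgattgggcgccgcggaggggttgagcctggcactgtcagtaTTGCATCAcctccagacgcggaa
Aars1, chr8:111033592-111033871, plus strand: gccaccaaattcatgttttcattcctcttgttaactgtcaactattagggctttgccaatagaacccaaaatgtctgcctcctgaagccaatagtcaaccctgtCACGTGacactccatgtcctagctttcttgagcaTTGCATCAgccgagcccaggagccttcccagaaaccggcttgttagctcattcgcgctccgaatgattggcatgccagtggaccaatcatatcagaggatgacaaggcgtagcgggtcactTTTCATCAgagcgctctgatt
Yars1, chr4:129189653-129189932, plus strand: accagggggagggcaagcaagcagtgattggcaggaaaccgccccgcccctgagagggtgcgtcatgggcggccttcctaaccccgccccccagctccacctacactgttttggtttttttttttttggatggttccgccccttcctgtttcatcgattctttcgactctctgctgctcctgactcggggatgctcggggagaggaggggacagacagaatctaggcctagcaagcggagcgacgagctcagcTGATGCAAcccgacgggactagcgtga
Gars, chr6:55037751-55038030, plus strand: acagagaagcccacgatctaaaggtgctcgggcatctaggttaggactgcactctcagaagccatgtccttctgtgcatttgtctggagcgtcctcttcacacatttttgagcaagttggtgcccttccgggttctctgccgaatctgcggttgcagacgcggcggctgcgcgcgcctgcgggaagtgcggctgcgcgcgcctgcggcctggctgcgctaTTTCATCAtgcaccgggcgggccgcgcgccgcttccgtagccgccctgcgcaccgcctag
Tars1, chr15:11399629-11399908, minus strand: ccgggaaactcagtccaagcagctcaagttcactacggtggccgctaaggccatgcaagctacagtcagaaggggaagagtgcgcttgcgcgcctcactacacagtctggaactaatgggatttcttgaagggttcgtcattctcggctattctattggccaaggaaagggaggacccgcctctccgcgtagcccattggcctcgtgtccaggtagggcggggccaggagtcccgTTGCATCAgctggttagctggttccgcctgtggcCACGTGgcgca
A match of letters is a description and not a binding site, and the RefSeq start can differ from the GENCODE gene start given for a gene. In Iars1 the core TTGCATCA began 7 bases after the start base and the E-box 69 bases before it. Aars1 held the core at positions -112 and 9, counted from the start base as 0, and an E-box at -146. The other cores began at 3 in Yars1, -30 in Gars and -15 in Tars1. These 5 genes did not move together: Iars1 and Aars1 fell, Yars1 rose, and Gars and Tars1 did not pass. Sars1 and Eprs1, which also fell, were read and held neither motif. The remaining E-boxes were in Farsb, which rose, and in Tars1 and Ears2, which did not pass.

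Iars1 (chr13:49682100-49734267 on GRCm38), which charges isoleucine tRNA and belongs to the multi-synthetase complex, had 181 and 164 normalised CPM in shNT and 70.6 and 66.5 in shNr4a3. Both shNr4a3 libraries lay far below both controls. Its log2 fold change was -1.33 ± 0.07 (edgeR adjusted p = 6.14e-17), and it is 1 of the 2 synthetases, with Hars1, that fell by more than 1 on the log2 scale. Hars1, the histidine enzyme, on chromosome 18, had 80.1 and 82.1 CPM in shNT and 42.1 and 38.2 in shNr4a3, again with no overlap, and fell 2.02-fold (log2 -1.01 ± 0.08, adjusted p = 1.87e-12).

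Sars1 (chr3:108424865-108445209) charges serine tRNA and also the tRNA later converted to selenocysteine. It had 293 and 273 CPM in shNT and 153 and 147 in shNr4a3, a log2 fold change of -0.92 ± 0.06 (adjusted p = 2.41e-14). Aars1 (chr8:111033144-111057664), the alanine enzyme, had 406 and 376 CPM in shNT and 220.1 and 224 in shNr4a3. Its log2 fold change was -0.82 ± 0.06 (adjusted p = 1.16e-13). In both genes the control and knockdown libraries were well apart and the replicates close. In the annotation Aars1 shares 1326 exon bases with Exosc6 on the same strand, so its count is uncertain to that extent.

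Vars1, the valine enzyme (chr17:35000987-35016322), had 101 and 91.9 CPM in shNT and 61.5 and 60.2 in shNr4a3, a log2 fold change of -0.66 ± 0.07 (adjusted p = 4.05e-09). Cars1, the cysteine enzyme (chr7:143557230-143600090), had 119.8 and 118 CPM in shNT and 78.4 and 76.1 in shNr4a3, a log2 fold change of -0.62 ± 0.07 (adjusted p = 2.49e-09). Both were lower in each shNr4a3 library than in each control. Eprs1, a fused enzyme that charges both glutamate and proline tRNA and is part of the complex (chr1:185363044-185428360), fell least, from 299 and 285 CPM in shNT to 242 and 240.3 in shNr4a3. That is a 1.21-fold fall (log2 -0.28 ± 0.06, adjusted p = 1.17e-04), small but larger than the spread of the replicates.

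The largest rise was that of Farsb (chr1:78417975-78488897), which encodes the beta subunit of the phenylalanine enzyme. It had 48.1 and 43.5 CPM in shNT and 74.8 and 74.3 in shNr4a3, a log2 fold change of 0.70 ± 0.08 (adjusted p = 5.29e-09). Farsa encodes the alpha subunit of the same tetramer and had 53.1 and 55.3 CPM in shNT and 51.5 and 52.2 in shNr4a3, a log2 fold change of -0.07 ± 0.08 (95% interval -0.23 to 0.10, adjusted p = 0.506). Farsb was higher in both shNr4a3 libraries, while Farsa was slightly lower in both and its groups lay within a few CPM; the difference between the subunits was not tested.

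Yars1, the tyrosine enzyme (chr4:129189760-129219607), had 90.7 and 86.7 CPM in shNT and 116 and 118 in shNr4a3 (log2 0.40 ± 0.07, adjusted p = 5.88e-06). Rars1, the arginine enzyme of the complex (chr11:35808381-35834506), had 141 and 149 CPM in shNT and 178 in each shNr4a3 library (log2 0.30 ± 0.06, adjusted p = 1.18e-04). Both rises were moderate, 1.32-fold for Yars1 and 1.23-fold for Rars1, and no library of one group reached the range of the other.

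**Figure D2:**
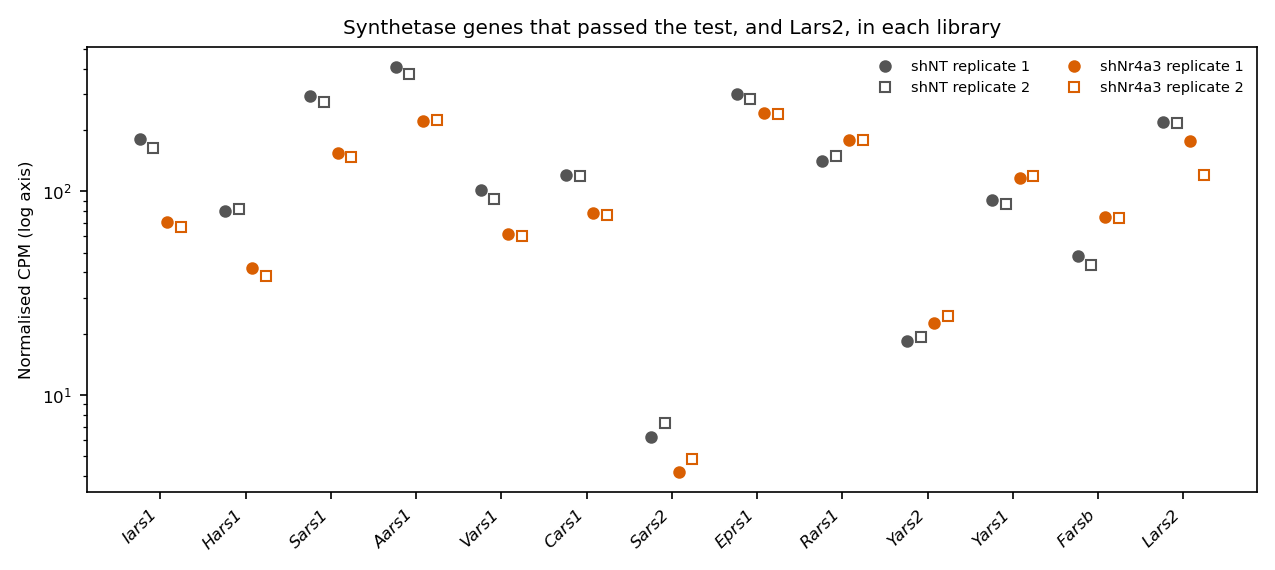
Normalised CPM (vertical axis, log scale) in each of the 4 libraries for 12 of the synthetase genes that passed the test, in order of their log2 fold change, and for Lars2 at the right. Grey marks are shNT and orange marks shNr4a3, with replicate 1 filled and replicate 2 open; the groups are apart for all 12, from Iars1 (181 and 164 against 70.6 and 66.5) to Farsb, while the shNr4a3 replicates of Lars2 lie at 177 and 120.2.

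Of the 9 cytosolic genes that did not pass, Nars1 had the most counts. This asparagine enzyme had 349.8 and 349.6 CPM in shNT and 341 and 339 in shNr4a3 (log2 -0.04 ± 0.05, 95% interval -0.15 to 0.07). Gars, the glycine enzyme of cytosol and mitochondria, had 253 and 257 CPM in shNT and 262 and 264 in shNr4a3 (log2 0.04 ± 0.06, -0.07 to 0.16). In both genes the groups did not overlap, yet the distance between them was small.

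Kars1, the lysine enzyme of both compartments, had 117 and 114 CPM in shNT and 125 and 120.0 in shNr4a3 (log2 0.08, 95% interval -0.05 to 0.22). Lars1, the leucine enzyme of the complex, which is also known as a leucine sensor, had 162 and 152 CPM in shNT and 151 and 146 in shNr4a3 (log2 -0.08, -0.21 to 0.05). Mars1, the methionine enzyme of the complex, had 81.7 and 80.0 CPM in shNT and 69.7 and 85.7 in shNr4a3 (log2 -0.06, -0.22 to 0.11). Mars1 was the only cytosolic gene whose groups overlapped, with its shNr4a3 libraries on either side of the controls.

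Qars1, the glutamine enzyme of the complex, had 88.2 and 82.8 CPM in shNT and 92.2 and 94.5 in shNr4a3 (log2 0.13, 95% interval -0.01 to 0.27, adjusted p = 0.121). Tars1, the threonine enzyme, had 129.6 and 127 CPM in shNT and 118 and 114 in shNr4a3 (log2 -0.14, -0.27 to -0.01, adjusted p = 0.0620). Wars1, the tryptophan enzyme, had 94.6 and 95.2 CPM in shNT and 91.6 and 87.0 in shNr4a3 (log2 -0.09, -0.23 to 0.05). In these 3 genes the groups were apart but near each other. Leaving out 1 library brought some of these genes past the threshold: Tars1 without shNT replicate 1 (-0.12, adjusted p = 0.0462) or 2 (-0.15, 0.00806), Qars1 without shNT replicate 1 (0.18, 0.0108) and Lars1 without shNT replicate 2 (-0.12, 0.0196).

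Each subset of the cytosolic genes, by what the proteins do, held both directions. Of 8 genes of the multi-synthetase complex, 2 rose (Rars1 among them), 2 fell (Iars1, Eprs1) and 4 did not pass, with a median log2 fold change of 0.01. Of 12 outside it, 2 rose and 5 fell, with a median of -0.11. The structural classes also held both directions: 2 rose and 3 fell among 9 class I genes, and 2 rose and 3 fell among 10 class II genes, with Eprs1, which joins an enzyme of each class and fell, counted in neither. Of the 12 genes taken as known ATF4 targets, 5 fell (Iars1, Sars1, Aars1, Cars1, Eprs1), Yars1 rose and 6 did not pass, with a median of -0.11. The other 8 held 3 that rose, 2 that fell (Hars1, Vars1) and a median of 0.11. The share called ran from 50% to 62.5% over these subsets, near the 55.5% of all tested genes. Over all tested genes 27.6% rose and 27.9% fell. The subsets are small, and no difference between them was tested.

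The multi-synthetase complex is held together by 3 scaffold proteins. Eef1e1, also called AIMP3, rose from 36.0 and 38.5 CPM to 60.0 and 51.9 (log2 0.59 ± 0.09, adjusted p = 1.17e-06). Aimp1 rose from 50.5 and 52.8 CPM to 67.1 and 61.8 (log2 0.32 ± 0.08, adjusted p = 0.00100), a call that was lost without shNr4a3 replicate 1 (0.26, adjusted p = 0.0689). Aimp2 did not pass, with 25.6 and 24.4 CPM in shNT and 23.4 and 24.5 in shNr4a3. Thus 2 of the 3 scaffold genes rose, where 55.5% of all tested genes passed and 27.6% rose. Of the 8 enzyme genes of the complex 2 rose, 2 fell and 4 did not pass. A difference between scaffolds and enzymes was not tested.

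Mitochondrial Sars2, the serine enzyme (chr7:28741992-28753871), had 6.23 and 7.25 CPM in shNT and 4.19 and 4.88 in shNr4a3, or 203, 246, 149 and 177 counts. The groups did not overlap, and its log2 fold change was -0.57 ± 0.20 (adjusted p = 0.0179). When shNT replicate 2 was left out the call was lost (-0.45, adjusted p = 0.105), as it was without shNr4a3 replicate 1 (-0.47, 0.155) and with library totals as the scaling (-0.46, 0.0570). Yars2, the tyrosine enzyme (chr16:16302965-16309640), had 18.4 and 19.2 CPM in shNT and 22.6 and 24.3 in shNr4a3, with the groups apart (log2 0.32 ± 0.11, adjusted p = 0.0158). Its call was lost without shNr4a3 replicate 1 (0.37, adjusted p = 0.0507) or 2 (0.27, 0.180).

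Lars2, the leucine enzyme (chr9:123366927-123462666), had the most counts of the mitochondrial members and the largest standard error of all members. It had 219.8 and 217 CPM in shNT and 177 and 120.2 in shNr4a3, or 7166, 7361, 6282 and 4360 counts. Both shNr4a3 libraries were below the controls but far from each other, and the log2 fold change of -0.56 ± 0.24 did not pass (95% interval -1.35 to 0.24, adjusted p = 0.163). It was -0.31 (adjusted p = 0.0115) without shNr4a3 replicate 2 and -0.86 (7.8e-14) without shNr4a3 replicate 1. In those fits the lone shNr4a3 library is assumed to vary as the controls do, which the pair of values above does not bear out. With the replicate number as a block it was -0.58 (9.52e-16), although the labels do not say whether the numbers pair the libraries. The size of the fall of Lars2 was therefore decided by which shNr4a3 library was used.

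Among the other mitochondrial genes, Nars2, the asparagine enzyme, had 8.31 and 9.88 CPM in shNT and 10.9 and 11.9 in shNr4a3 (log2 0.33 ± 0.16, adjusted p = 0.0773), and passed without shNT replicate 2 (0.46, 0.0210). Pars2, the proline enzyme and the member with the fewest counts, had 5.46 and 4.13 CPM in shNT and 3.77 and 3.67 in shNr4a3 (log2 -0.37, 95% interval -0.84 to 0.11). Aars2, the alanine enzyme, had 21.4 and 14.5 CPM in shNT and 16.2 and 16.6 in shNr4a3 (log2 -0.13, -0.42 to 0.16). The shNT libraries of Aars2 lay on either side of the shNr4a3 libraries, and without shNT replicate 2 the gene passed as lower (-0.38, adjusted p = 0.00632).

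Iars2, the isoleucine enzyme, had 100.4 and 90.6 CPM in shNT and 92.4 and 96.1 in shNr4a3 (log2 -0.02, 95% interval -0.16 to 0.12). Hars2, the histidine enzyme, had 29.6 and 26.7 CPM in shNT and 29.5 and 30.4 in shNr4a3 (log2 0.09, -0.11 to 0.29). Tars2, the threonine enzyme, had 32.7 and 30.7 CPM in shNT and 32.1 and 36.1 in shNr4a3 (log2 0.10, -0.09 to 0.30). In all 3 the groups overlapped, and no interval reached down to the falls of Iars1 and Hars1.

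Mars2, the methionine enzyme, had 23.8 and 26.6 CPM in shNT and 23.1 and 24.8 in shNr4a3 (log2 -0.08). Rars2, the arginine enzyme, had 20.1 and 23.5 CPM in shNT and 20.8 and 22.1 in shNr4a3 (log2 -0.03). Cars2, the cysteine enzyme, had 17.6 and 18.6 CPM in shNT and 18.9 and 18.6 in shNr4a3 (log2 0.05). The libraries of these 3 genes were mixed or all but equal.

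Vars2, the valine enzyme, had 19.0 and 16.6 CPM in shNT and 14.9 and 19.1 in shNr4a3 (log2 -0.07). Wars2, the tryptophan enzyme, had 11.4 and 11.6 CPM in shNT and 9.11 and 10.7 in shNr4a3 (log2 -0.22). Wars2 was lower in both shNr4a3 libraries, while the groups overlapped for Vars2. Fars2, the phenylalanine enzyme, had 9.05 and 11.2 CPM in shNT and 11.6 and 11.7 in shNr4a3 (log2 0.21). Ears2, the glutamate enzyme, had 8.25 and 9.64 CPM in shNT and 7.26 and 8.02 in shNr4a3 (log2 -0.23). Neither of these passed, although the groups were apart.

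The enzymes for the same amino acid in different compartments often did not share a change. For 15 amino acids both a cytosolic and a mitochondrial gene were listed, which gives 16 pairs since Farsa and Farsb both pair with Fars2. The cytosolic gene passed in 10 pairs, the mitochondrial gene in 2, and both in those same 2, in which they moved the same way: serine (Sars1 and Sars2 fell) and tyrosine (Yars1 and Yars2 rose). The ratio of Iars1 to Iars2 in CPM was 1.80 and 1.81 in shNT and 0.764 and 0.692 in shNr4a3, and the ratio in each shNr4a3 library was far below that in each control. The ratio of Hars1 to Hars2 was 2.71 and 3.07 in shNT and 1.43 and 1.26 in shNr4a3. For leucine the ratio of Lars1 to Lars2 rose from 0.739 and 0.701 to 0.856 and 1.22, with the Lars2 libraries apart as described. Gene length enters the level of such a ratio but not its change between groups, and these changes were not tested.

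**Figure D3:**
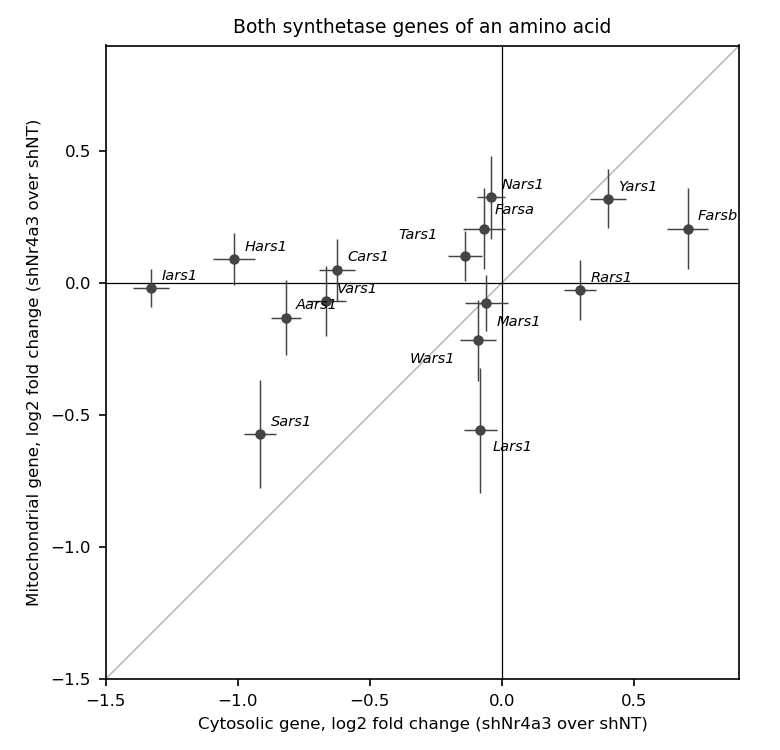
Log2 fold change (shNr4a3 over shNT) of the cytosolic gene, horizontal axis, against that of the mitochondrial gene of the same amino acid, vertical axis, for 15 of the pairs, labelled by the cytosolic gene; bars are standard errors and the diagonal marks equal change. Iars1 (-1.33, against -0.02 for Iars2) and Hars1 (-1.01, against 0.09 for Hars2) lie far from the diagonal, Yars1 and Yars2 (0.40 and 0.32) near it.

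Summed over its genes, the cytosolic class had 3174 and 3069.8 normalised CPM in shNT and 2654 and 2635 in shNr4a3, a mean 15.3% lower (a change of -15.28%). The mitochondrial class had 562 and 550.3 CPM in shNT and 506 and 473 in shNr4a3, a change of -12%. Without Lars2, a choice made after its values were seen, the mitochondrial sum was 343 and 333 in shNT and 329 and 353 in shNr4a3, a change of 0.936%. The mitochondrial sum was thus lower through Lars2, and for the remaining 16 genes together the groups overlapped. With library totals in place of TMM factors the changes were -8.37%, -4.83% and 9.18%, so the last of these depends on the scaling. The ratio of the cytosolic to the mitochondrial sum was 5.64 and 5.58 in shNT and 5.25 and 5.57 in shNr4a3. Without Lars2 it was 9.26 and 9.21 against 8.06 and 7.47, and the scaling cancels in both ratios.

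Per length, the cytosolic transcripts were more abundant than the mitochondrial ones. In the deposited FPKM, which the authors computed with their own gene lengths, the median level over genes in shNT was 18.9 for the cytosolic class and 3.93 for the mitochondrial class. With exon lengths from GENCODE M21 in place of the deposited lengths the medians were 23.8 and 2.41. The highest deposited levels were 169.9 ± 7.18 FPKM for Sars1, 125.8 ± 0.798 for Nars1 and 125.2 ± 1.40 for Kars1 (SD, n = 2), of which the last 2 do not differ beyond their spread. The lowest mitochondrial levels shown were 1.53 ± 0.0664 for Cars2 and 1.59 ± 0.301 for Pars2, which do not differ beyond their spread. The deposited lengths ran from 0.199 to 3.53 times the annotated exon lengths, and Kars1, with 888 deposited against 4464 annotated bases, moved from rank 3 to rank 10. The order of single genes therefore depends on the length used. Farsb had 4.76 ± 0.307 FPKM in shNT and 8.39 ± 0.0153 in shNr4a3, and Iars1 27.4 ± 1.75 and 11.8 ± 0.466. These FPKM are scaled by library totals and so read slightly higher in shNr4a3 than normalised CPM.

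**Figure D4:**
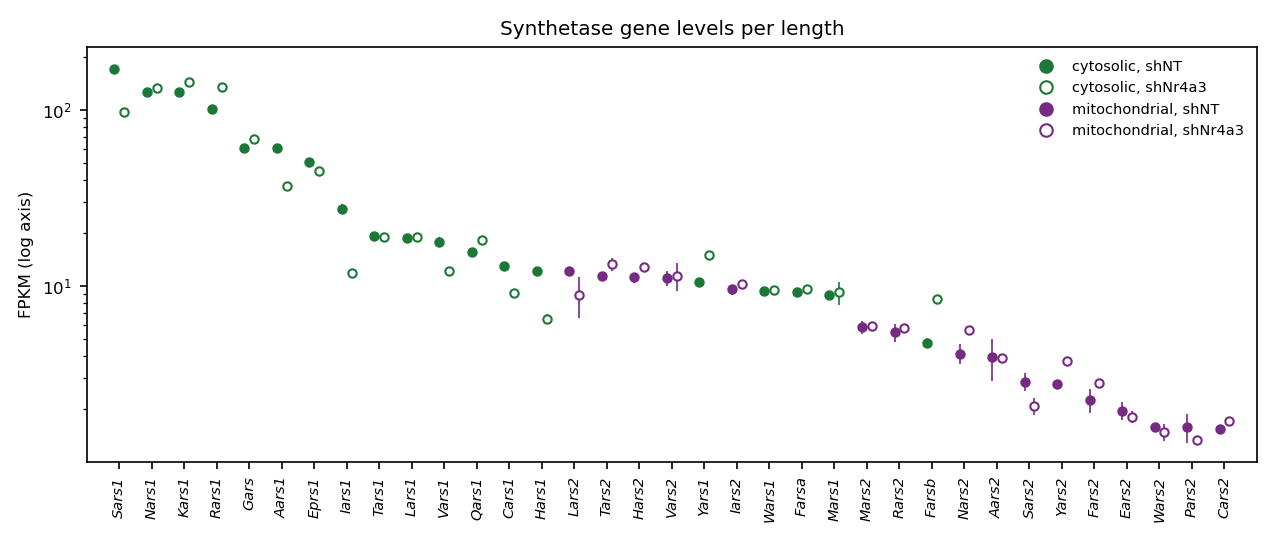
Deposited FPKM (vertical axis, log scale; mean and SD of 2 libraries) of 35 of the synthetase genes in order of their level in shNT, with filled circles for shNT and open circles for shNr4a3. The cytosolic genes, in green, take the upper end, from Sars1 at 169.9, and the mitochondrial genes, in purple, take most of the lower end, to Cars2 at 1.53.

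Other genes of the amino acid response were read from the same fit. Of 27 genes comprising Atf4 and its known targets outside the synthetases, 16 fell, 7 rose and 4 did not pass. Over all tested genes 27.9% fell and 27.6% rose. The median log2 fold change was -0.47 for the list and 0.00 for all tested genes. Atf4 itself did not pass (8248 and 9290 counts in shNT, 9284 and 9391 in shNr4a3, log2 -0.02 ± 0.06, adjusted p = 0.804), and its activity is set largely by translation, which these data do not measure. Atf5, a related transcription factor, had 204 and 211 CPM in shNT and 86.4 and 85.4 in shNr4a3 (log2 -1.27 ± 0.06, adjusted p = 2.15e-17). Cebpb, a C/EBP factor, had 73.9 and 68.3 CPM in shNT and 30.4 and 28.5 in shNr4a3 (log2 -1.27 ± 0.08, adjusted p = 3.31e-14). Both were lower in each shNr4a3 library. Trib3, a pseudokinase that restrains this response, had 16 and 14.9 CPM in shNT and 3.15 and 3.61 in shNr4a3 (log2 -2.19 ± 0.17, adjusted p = 2.37e-12). Phgdh, the first enzyme of serine synthesis, had 156 and 154 CPM in shNT and 85.7 and 90.7 in shNr4a3 (log2 -0.81 ± 0.06, adjusted p = 2.81e-12). Not all targets fell: Ddit4, an inhibitor of mTORC1 signalling, rose by 0.69 and the glycoprotein gene Stc2 by 0.57, while Asns, the asparagine synthetase, fell by 0.20 (adjusted p = 0.0160). These last 3 genes were named after their values were seen. The call of Asns was lost without shNr4a3 replicate 1 (-0.13, adjusted p = 0.343). Leaving out 1 library left from 13 to 16 genes lower; 3 were higher without shNr4a3 replicate 1 and 4 without shNr4a3 replicate 2, against 7 or 8 otherwise.

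Of 9 genes for the kinases and phosphatases that act on eIF2, its alpha subunit and the partners of GCN2, 2 rose and 2 fell, a share not far from the 55.5% of all genes, and the median log2 fold change was -0.07. Eif2s1, which encodes the phosphorylated alpha subunit of eIF2, had 132 and 146 CPM in shNT and 202 and 188 in shNr4a3 (log2 0.48 ± 0.06, adjusted p = 1.43e-07). Gcn1, the partner that GCN2 needs on the ribosome, had 167 and 164 CPM in shNT and 124 and 128 in shNr4a3 (log2 -0.39 ± 0.06, adjusted p = 2.44e-06). Both were apart between the groups. Eif2ak3, the kinase PERK (log2 -0.27, adjusted p = 0.00994), lost its call when shNT replicate 1 (-0.20, 0.0586) or either shNr4a3 library was left out (-0.26, 0.104 without replicate 1, and -0.29, 0.0605 without replicate 2). Ppp1r15a, the induced eIF2 phosphatase subunit (0.21, 0.0170), lost it when shNT replicate 2 (0.12, 0.0937) or either shNr4a3 library was left out (0.21, 0.121 without replicate 1, and 0.20, 0.136 without replicate 2).

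**Figure D5:**
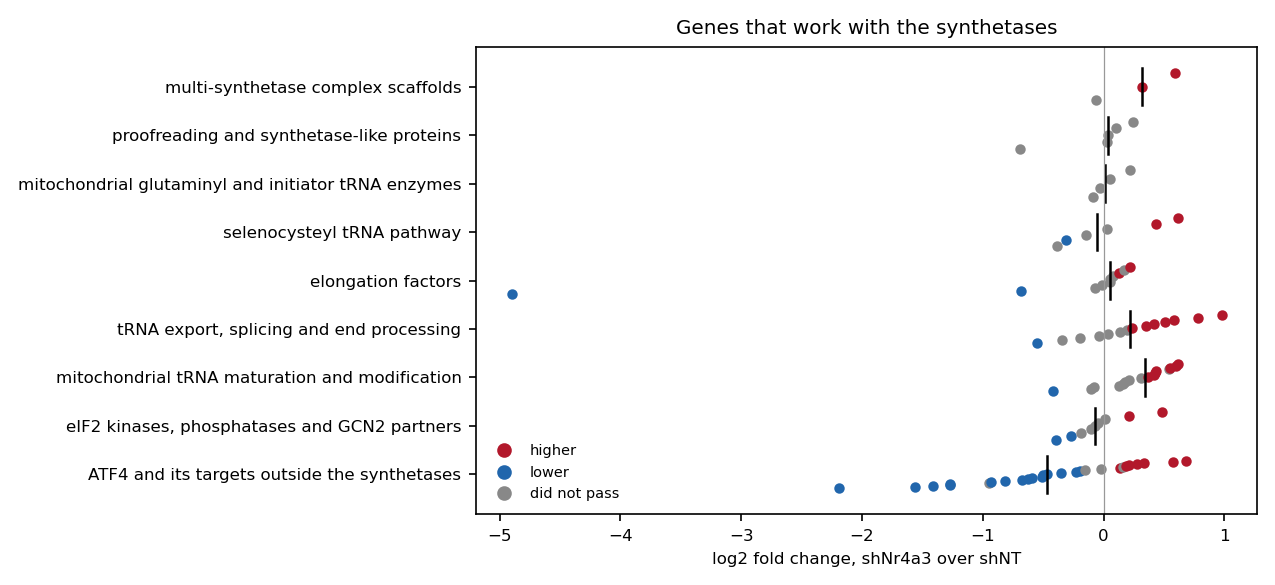
Log2 fold change (shNr4a3 over shNT, horizontal axis) of each tested gene in 9 lists of genes that work with the synthetases; points are genes, coloured by the edgeR call, and black bars are list medians. The list of ATF4 and its targets has its median at -0.47 and points on both sides of 0; the point farthest to the left is Eef1a2, which was counted 42 and 20 times in shNT against 2 and 0 times in shNr4a3, so that its fitted value is not a bound.

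The positions of the genes show where neighbours could share reads or a promoter. 10 members have a protein-coding gene that starts within 1000 bases on the opposite strand, and the partner is itself a member for Hars1 and Hars2, which lie head to head on chromosome 18 with 195 exon bases in common on opposite strands. Hars1 fell while Hars2 did not pass. S100pbp, opposite Yars1, was lower in shNr4a3 (log2 -0.39, adjusted p = 0.00147) while Yars1 rose. Terf2ip, opposite Kars1 (-0.52, 1.62e-04), and Wdr25, opposite Wars1 (-0.55, 0.0292), fell and Orc3, opposite Rars2 (0.33, 0.00241), rose, whereas the synthetase genes there did not pass. Ubfd1 opposite Ears2, Lyrm4 opposite Fars2 and Mrps12 opposite Sars2 did not pass. Exons shared with an antisense neighbour include 68 bases of Mars1 with Ddit3, 248 of Farsb with Sgpp2 and 2034 of Iars2 with Rab3gap2. The strand setting of the counting is not given in the sources used here, so those reads cannot be assigned with certainty.

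Against a minimum log2 fold change of 0.5, edgeR called Iars1, Hars1, Sars1, Aars1 and Vars1 lower and Farsb higher, and no mitochondrial gene. Over all genes this stricter test called 10.3% lower and 5.70% higher. The authors' deposited table labels Iars1 and Hars1 as down and no other member as changed, with 5.34% of all genes labelled down. In the authors' deposited table the log2 fold change was -1.33 for Iars1 (adjusted p = 1.47e-24) and -1.02 for Hars1 (2.19e-07). In the authors' deposited table Sars1 (-0.92, 2.46e-09) and Aars1 (-0.82, 2.30e-06) also had an adjusted p under the threshold without that label.

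The labelled cell type and the other cells of the heart were checked by marker genes, since their share can move with any transcript. All 10 fibroblast markers were listed, 4 higher and 5 lower in shNr4a3, with a summed level of 13714 and 13287 CPM in shNT against 9007 and 9053 in shNr4a3. Col1a1, Col1a2 and Vim kept at least 40988 counts in every library but fell (log2 -1.15, -0.84 and -0.97). Tcf21 (-1.91) and Thy1 (-0.69) also fell. Postn (0.59), Pdgfra (0.73), Lum (0.63) and Dcn (0.16) rose, and Ddr2 did not pass. All 8 mesothelial and epicardial markers were lower, with a summed level of 562 and 536 CPM in shNT against 121 and 124 in shNr4a3. For endothelial cells 6 of 8 were lower (339 and 325 against 176 and 167 CPM), and for smooth muscle and pericytes 4 of 5 were lower and 1 higher (574 and 508 against 227 and 226 CPM). Of the macrophage markers 3 of 5 were lower, Csf1r did not pass and Lyz2 was higher. Their sum was 60.5 and 60.6 CPM in shNT against 99.8 and 99.2 in shNr4a3. Its rise came from Lyz2 alone, which had 40.3 and 42.2 against 90.9 and 87.8 CPM. Of 6 cardiomyocyte markers only Tnnt2 was lower, and it made up nearly all of that sum (1059 and 1003 against 481 and 506 CPM); the other 5 had at most 34 counts in a library. No listed marker was at 0 counts in any library; Myh7, Actn2, Kcnj8, Adgre1 and C1qa had no row among the genes analysed. These sums moved with the same contrast as the synthetase genes, and their part in the results was not tested.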

How the data were processed

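RNA was measured in 4 libraries, 2 shNT and 2 shNr4a3, with groups taken from the titles. According to the labels' protocols, RNA was depleted of ribosomal RNA and sequenced as paired ends from a stranded kit. The submitters' processing notes name mm10, Trimmomatic 0.36, featureCounts, Subread 1.5.1 and SAMtools; what each tool did, as well as the aligner and the strand setting, is not given in the sources used here. Raw counts per gene were deposited, per the file headers; the table lists no gene with a mean under 10.25 counts. The authors derived FPKM from these counts and their own gene lengths (whole numbers for 100% of values, within 0.01 bases). The table's log2 fold change, its standard error (held as a score) and p-value are the authors' own comparison, per the file headers; the deposited mean signal was not used.

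Counts were tested with edgeR 4.0.16 in R 4.3.3 with its robust quasi-likelihood test, TMM factors and a model of group alone, after filterByExpr had removed 32 genes, with p-values adjusted by Benjamini-Hochberg over 13160 genes and a threshold of 0.05. Adjusted p-values in the text are from this test unless stated, n is 2 per group, and the standard error is the log2 fold change over the square root of F. TMM factors also scale the normalised CPM. The test was tried on simulated data, but the outcome is not given here and no result rests on it. The members and lists were chosen with earlier results of these data known, and the lists are described by counts and medians without a test. All members enter the counts, and the values of some are not reported here; the others were all named. Of each list, up to 4 genes with the smallest p were named, and others are marked. Positions are from GENCODE M21 on GRCm38, promoters from RefSeq.

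Replicates differed by more than sampling noise (chi-square per gene 11.2 in shNT and 3.99 in shNr4a3), and the biological coefficient of variation was 6.57%. Alternatives were DESeq2 1.42.0, limma-voom (limma 3.58.1), other factors, other filters, a gene length offset, the dominant genes removed, a minimum fold, the replicate number as a block and each library left out.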

Additional observations from a re-analysis of the deposited data

How the results depend on the processing

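Across 16 alternatives no member's called change reversed, and 557 of 592 member values kept their side of the threshold; 20 of 37 members never changed their call, and 27 did not outside the minimum fold and the authors' comparison. Over all genes, 750 were higher and 1351 lower against a minimum log2 fold change of 0.5, and 436 and 970 in the authors' deposited table. Those 2 settings left 1 and 0 cytosolic genes higher and 0 mitochondrial genes in either direction. In the authors' comparison 4 cytosolic genes were lower. A minimum fold makes fewer calls by construction. The authors' log2 fold changes had the same median as the DESeq2 run (-0.00102), which kept the call of all 37 members. Yet in the authors' comparison Farsb (0.70, SE 0.09) had an adjusted p of 0.118 and Cars1 (-0.63, SE 0.07) one of 0.269. Changes this large beside their standard errors would pass a test against 0, so these fewer calls are not read as disagreement. The cause of the fewer calls was not tested further. With library totals only, the median of all genes shifted by 0.11 on the log2 scale, 7 cytosolic and 2 mitochondrial genes were higher, and 0 mitochondrial genes were lower. Leaving out 1 library gave from 0 to 2 mitochondrial genes higher and from 1 to 2 lower, from 4 to 5 cytosolic genes higher and from 7 to 9 lower.

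The replicate block gave 2 mitochondrial genes lower, Sars2 and Lars2, and changed no other member's call. The labels do not say whether the replicate numbers pair the libraries. The correlation of replicate differences between the groups was -0.03, so no shared replicate effect was seen, which cannot show how the cultures were made. The mitochondrial counts rest on few reads for some genes, down to 133 counts in a library for Pars2, and with 2 libraries per group a single one can decide a call.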

Other observations

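Other steps of tRNA supply were read from the same fit. For export, splicing and end processing of tRNA, 7 of 14 genes rose, Xpot alone fell and 6 did not pass. Over all tested genes 55.5% passed, 27.6% higher and 27.9% lower. The median log2 fold change of the list was 0.22 against 0.00 for all genes. Elac1, which trims or repairs tRNA ends, rose from 13.4 and 14.2 CPM in shNT to 29.1 and 25.3 in shNr4a3 (log2 0.98 ± 0.12, edgeR adjusted p = 2.04e-08). Tsen34, a catalytic subunit of the tRNA splicing endonuclease, rose by 0.78 and Trnt1, which adds the terminal CCA, by 0.42. Xpot, the nuclear exporter of tRNA, fell from 135 and 140.1 CPM to 97.4 and 90.5 (log2 -0.55 ± 0.07, adjusted p = 1.84e-08). Without shNr4a3 replicate 2 the count of higher genes was 4, and with library totals it was 10.

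For maturation and modification of mitochondrial tRNA, 7 of 16 genes rose, Nsun3, named after its values were seen, fell, and 8 did not pass. Over all tested genes 55.5% passed, 27.6% higher and 27.9% lower. The median of the list was 0.34. Of the mitochondrial synthetase genes 2 of 17 passed. The call of Nsun3 (-0.42, edgeR adjusted p = 0.0283) was lost without shNT replicate 2 (-0.24, 0.277) or either shNr4a3 library (-0.37, 0.159 and -0.46, 0.0826). Hsd17b10 (log2 0.55, adjusted p = 5.67e-06) and Trmt10c (0.42, 0.00106), which are partners in mitochondrial RNase P, and the queuine tRNA transferase subunit Qtrt1 (0.62, 8.01e-05) were higher. Trmt5, a tRNA methyltransferase (0.43, 0.00276), lost its call without shNr4a3 replicate 1 (0.36, 0.0802). Without shNr4a3 replicate 1 or 2 the count of higher genes was 4, and with DESeq2 it was 5. The difference between this list and the mitochondrial synthetases was not tested.

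Of 10 elongation factors 2 rose, 2 fell and 6 did not pass, where 55.5% of all tested genes passed. With library totals 5 of these factors were higher. Eef2, which moves the ribosome along, fell from 2338 and 2138 CPM to 1384 and 1403 (log2 -0.68 ± 0.05, adjusted p = 5.94e-13). Eef1a2 was counted 42 and 20 times in shNT against 2 and 0 times in shNr4a3. Eef1g rose by 0.22, lost without shNr4a3 replicate 1 (0.20, adjusted p = 0.103), and Eef1a1 by 0.12, lost without shNr4a3 replicate 1 (0.13, 0.314) or 2 (0.12, 0.367). Of 6 genes of the selenocysteyl tRNA pathway, which starts from serine charged by Sars1, Pstk (0.61, adjusted p = 2.54e-04) and Sephs1 (0.43, 5.33e-05) rose and Secisbp2 fell by 0.31, a call lost without shNr4a3 replicate 1 (-0.28, 0.102). Eefsec did not pass (-0.38, 0.0553). None of 5 proofreading and synthetase-like genes passed the edgeR test (Prorsd1, Aarsd1, Dtd1 and Dtd2 had the smallest p), nor any of 4 genes for glutaminyl and initiator tRNA in mitochondria (Gatc, Gatb, Mtfmt, Qrsl1), although Gatc was called higher without shNT replicate 1 (0.29). Eefsec was called lower without that library (-0.52).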
